A study of Mus musculus with 10 samples.

Results

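The 10 genes described here encode proteins of the lipid droplet surface and of the lipolysis that empties the droplet. They are the perilipins Plin2, Plin3, Plin4 and Plin5, the Cide genes Cideb and Cidec, and the lipolysis genes Pnpla2, Abhd5, G0s2 and Mgll. They were chosen by name from the 43629 genes of the count table, with their difference between cachectic and non-cachectic livers already known, so their values in that comparison are given as a description and carry no p-value. The livers came from 10 adult male KL mice, an inducible, genetically engineered lung cancer model with both Lkb1 alleles floxed (flox/flox), backcrossed to FVB. All 10 mice shared this genotype and had received intranasal adenovirus with Cre under the CMV promoter, which starts tumours in the lung and is not restricted to 1 cell type there, and no tumour-free mice were analysed here. The 5 NCACS mice (11 to 15) had lost 3% to 14% of body weight and were non-cachectic, and the 5 CACS mice (16 to 20), with the cancer anorexia-cachexia syndrome, had lost 29% to 33%. The 2 groups were separated by weight loss itself and not by an assigned treatment.

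Hepatocytes store surplus fatty acids as triglyceride in cytosolic droplets, whose surface is coated by perilipins. ATGL, the product of Pnpla2, starts lipolysis by cutting the first fatty acid from triglyceride, with CGI-58 (Abhd5) as its activator and G0S2 as its inhibitor, and monoacylglycerol lipase (Mgll) completes it. CIDE proteins sit where droplets meet each other or the nascent lipoprotein and move lipid between them. Several of these genes are textbook targets of the fatty acid-sensing receptor PPARα in liver.

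The promoters of Plin2, Plin4 and Plin5 are shown because they differed most between the groups among the perilipins. The sequences are those of RefSeq on GRCm38.p6, from 250 bases before the annotated transcript start to 50 bases after it, on the minus strand that each gene is read from. They lie at chr4:86670010-86670309 for Plin2, at chr17:56109733-56110032 for Plin4 and at chr17:56117499-56117798 for Plin5. Capitals mark matches, on either strand, to the E-box CACGTG, the PPAR half-site AGGTCA, which reads as TGACCT where it is on the other strand, and the TATA motif TATAA.
Plin2: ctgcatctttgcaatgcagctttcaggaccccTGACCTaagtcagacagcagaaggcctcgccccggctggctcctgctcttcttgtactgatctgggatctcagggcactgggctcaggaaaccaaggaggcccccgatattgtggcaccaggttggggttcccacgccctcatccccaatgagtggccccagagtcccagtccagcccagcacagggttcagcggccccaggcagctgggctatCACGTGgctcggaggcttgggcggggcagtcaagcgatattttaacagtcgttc
Plin4: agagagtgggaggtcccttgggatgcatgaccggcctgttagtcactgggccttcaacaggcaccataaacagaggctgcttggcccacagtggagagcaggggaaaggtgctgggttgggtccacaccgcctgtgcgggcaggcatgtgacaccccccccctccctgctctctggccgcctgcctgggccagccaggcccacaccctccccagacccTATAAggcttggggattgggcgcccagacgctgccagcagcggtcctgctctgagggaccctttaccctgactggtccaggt
Plin5: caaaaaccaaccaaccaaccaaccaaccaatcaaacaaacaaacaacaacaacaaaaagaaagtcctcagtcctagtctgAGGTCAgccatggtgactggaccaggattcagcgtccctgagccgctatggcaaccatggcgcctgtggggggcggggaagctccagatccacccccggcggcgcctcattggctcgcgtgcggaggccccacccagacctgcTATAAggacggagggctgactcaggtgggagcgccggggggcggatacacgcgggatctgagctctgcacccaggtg
Plin4 and Plin5 each held a TATAA, which began at -32 and -27 relative to the start, whereas Plin2 held an E-box at -4. The half-site was found at -218 of Plin2 and at -170 of Plin5, and also at -69 of Abhd5 and at 13 of a second Plin5 window. Mgll held an E-box at -44 and Cideb a TATAA at -172. All 10 members matched RefSeq windows, 13 in number since some genes have more than 1 start. Over all 32851 such windows, 24.9% held TATAA, 16.3% held AGGTCA and 7.15% held CACGTG, beside 3, 4 and 2 of the 13 member windows. The STAT motif TTCNNNGAA, present in 8.30% of all windows, was in 0 of the 13 member windows, and the FOXO motif TGTTTAC, in 3.65% of all, was in 1, that of Mgll at -241. TGACG, the cyclic AMP response half-site, was in 20.8% of all windows and in those of 3 members, Abhd5, G0s2 and Mgll. These are letter matches and no binding was measured.

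Each liver gave between 31459179 and 40746178 counts. The tissue label was checked against hepatocyte markers, which summed to between 83254 and 134638 CPM (counts scaled to library size) in NCACS livers and between 126524 and 151522 in CACS livers, with 0 of the 8 markers past the threshold in edgeR or DESeq2 and 1 at an unadjusted p under 0.05. Of 14143 genes tested with edgeR's quasi-likelihood test, 538 had a Benjamini-Hochberg adjusted p under 0.05, which is 3.80% of them. These comprised 267 higher in CACS livers (1.89%) and 271 lower (1.92%). Of the same 14143 genes, 3051 had an unadjusted p under 0.05 in edgeR, and DESeq2 called 1386. The list counts given here and below are to be read beside these background counts.

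All 10 members were measured above the filter on low counts. The mean of Plin2, the main droplet coat gene of liver, was lower in CACS livers and those of Plin4, Plin5 and Cidec were higher. Plin3 and Cideb were slightly lower, and Pnpla2, Abhd5, G0s2 and Mgll had group means that differed by less than 1 SD of either group. By sign 5 members were higher and 5 lower, with a median log2 fold change of 0.03 beside -0.01 over all genes tested, and a median size of 0.25 regardless of sign beside 0.20. Plin4 was the 1 member past the threshold and the 1 member whose groups did not overlap. Over all genes 3.95% had every CACS liver above every NCACS liver and 3.13% the reverse, and nothing is read from the members' counts because the genes were chosen on this contrast. Levels here are TMM-normalized CPM, and a log2 fold change is CACS over NCACS with its standard error from the edgeR fit. In bulk tissue, fewer cells of a type and less RNA per cell cannot be told apart.

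**Figure D1:**
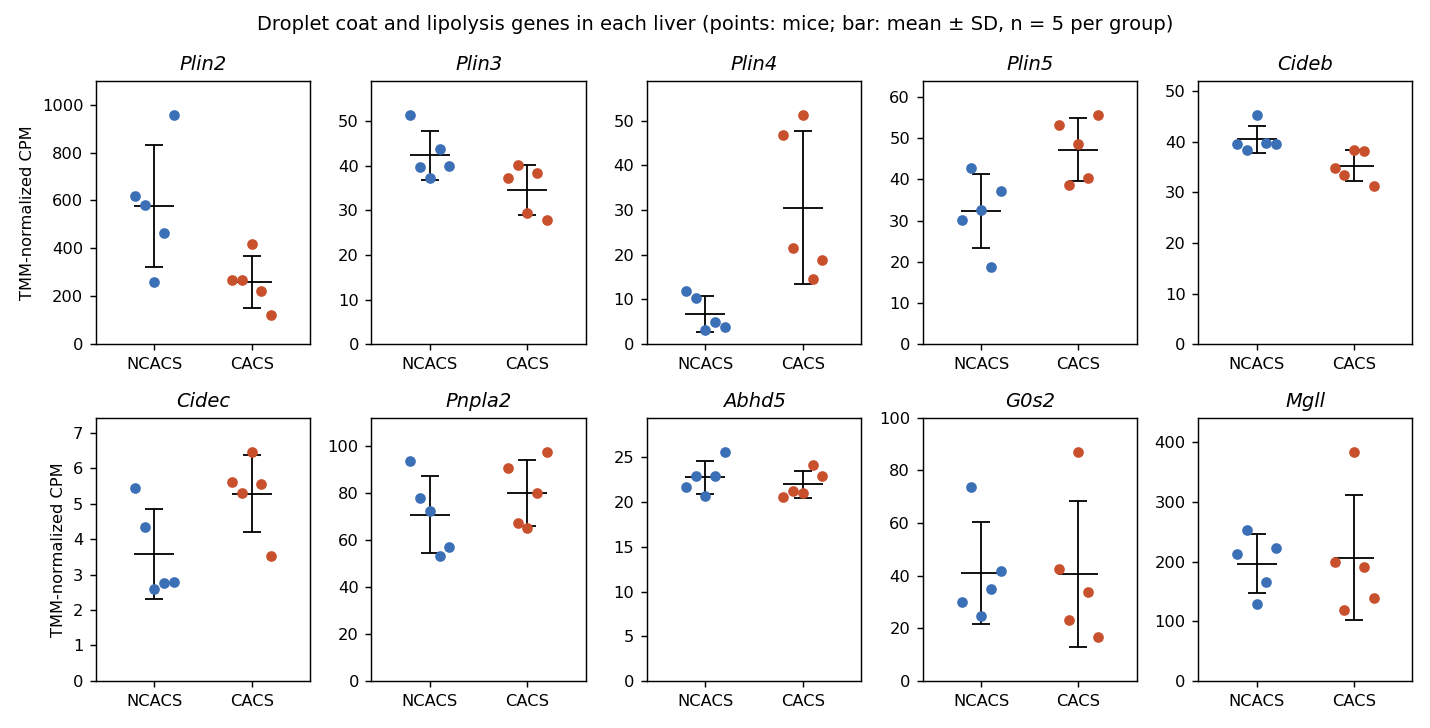
TMM-normalized CPM of the 10 genes in every liver, with each point a mouse, blue for NCACS and red for CACS, and bars for the mean ± SD (n = 5 per group). Plin4 is the panel with no overlap between the groups, with NCACS livers from 3.20 to 11.99 CPM and CACS livers from 14.5 to 51.2 CPM.

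Plin2 encodes the perilipin that coats droplets in most non-adipose cells and whose protein is stabilised by the lipid it covers. It lies on chromosome 4 from 86648386 to 86670060 (GRCm38, minus strand). NCACS mice 11 to 15 had 616, 583, 260, 463 and 955 CPM. CACS mice 16 to 20 had 269, 267, 420, 220 and 122 CPM. The groups overlapped because NCACS mouse 13, the lowest of its group, was below CACS mice 16, 17 and 18, and the other 4 NCACS livers were above every CACS liver. The means were 575 ± 254 (SD, n = 5) in NCACS and 260 ± 108 (SD, n = 5) in CACS livers, for a log2 fold change of -1.15 (SE 0.351) or 2.22 times more in NCACS livers. Without mouse 15 the log2 fold change was -0.88 and without mouse 18 it was -1.39. Within groups Plin2 varied more than most genes, with an SD of 0.666 on the log2 scale that exceeded that of 90.7% of genes tested.

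Plin4 encodes the longest perilipin, a protein with a long repetitive amphipathic region that is most abundant in adipocytes. Its gene spans 56100591 to 56109803 of chromosome 17 on the minus strand. Mice 11 to 15 had 11.99, 10.3, 3.20, 4.97 and 3.80 CPM. Mice 16 to 20 had 46.7, 21.4, 51.2, 14.5 and 18.9 CPM. Mice 11 and 12 stood above the other NCACS livers, mice 16 and 18 above the other CACS livers, and the groups did not overlap. The means were 6.85 ± 4.01 and 30.5 ± 17.04 (SD, n = 5 each), so that the CACS mean was 4.46 times the NCACS mean, with a log2 fold change of 2.15 (SE 0.456). The counts behind these values ran from 99 to 1868 per liver. Leaving out mouse 13, 14, 15, 16 or 18 lost the call of Plin4, while its log2 fold change kept its sign and stayed between 1.89 (without mouse 18) and 2.45 (without mouse 11). Its within-group SD of 0.830 on the log2 scale was above that of 95.3% of genes tested.

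Plin5 encodes the perilipin of oxidative tissues, which binds ATGL and CGI-58 and tethers droplets to mitochondria. It is the neighbour of Plin4 on the same strand, at 56111601 to 56117596 of chromosome 17, with 1797 bases between them, and Plin3 follows 160 kb further on. Mice 11 to 15 had 30.3, 42.7, 32.6, 18.7 and 37.2 CPM. Mice 16 to 20 had 53.1, 38.6, 48.7, 40.5 and 55.6 CPM. Of the 5 CACS livers, 3, of mice 16, 18 and 20, were above every NCACS liver, whereas mice 17 and 19 were below NCACS mouse 12. The means were 32.3 ± 8.96 and 47.3 ± 7.54 (SD, n = 5 each), giving a log2 fold change of 0.55 (SE 0.193) that stayed between 0.41 and 0.67 when single mice were left out.

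Plin3 encodes a perilipin that moves from the cytosol onto small new droplets, and it varied little. Its gene lies at 56277476 to 56292873 of chromosome 17. NCACS livers ranged from 37.3 to 51.3 CPM and CACS livers from 27.8 to 40.1 CPM. Mice 16, 18 and 20 were below every NCACS liver. The means were 42.4 ± 5.49 and 34.6 ± 5.59 (SD, n = 5 each), with a log2 fold change of -0.29 (SE 0.127).

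The mixture of perilipin transcripts differed along with their levels. Levels of different genes were compared per kilobase of exon (FPKM, the TMM-normalized CPM divided by exon length in kilobases). Plin2 to Plin5 together summed to 192 ± 74.3 FPKM in NCACS and 111 ± 32.5 FPKM in CACS livers (SD, n = 5 each), with ranges of 100.05 to 301 and 72.1 to 160 that overlapped. Plin2 made up 83.9% ± 6.06 of this sum in NCACS and 64.6% ± 10.04 in CACS livers. Its share was lowest in CACS mouse 20, at 48.3%, and highest in NCACS mouse 15, at 90.4%. The share of Plin5 was 8.95% ± 4.15 against 22.1% ± 8.75, reaching 37.0% in mouse 20, and overlapped through NCACS mouse 13, at 15.6%, and CACS mouse 18, at 14.6%. The share of Plin4 was 0.648% ± 0.313 against 4.58% ± 1.63, and did not overlap between the groups. Per kilobase, the Plin2 level was 84.6 to 414 times that of Plin4 in NCACS livers and 9.48 to 25.0 times in CACS livers. The corresponding ratio of Plin2 to Plin5 was 4.73 to 15.3 against 1.31 to 5.13, where only NCACS mouse 13 and CACS mouse 18 overlapped. These ratios rest on the same counts as the levels and are no separate evidence.

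**Figure D2:**
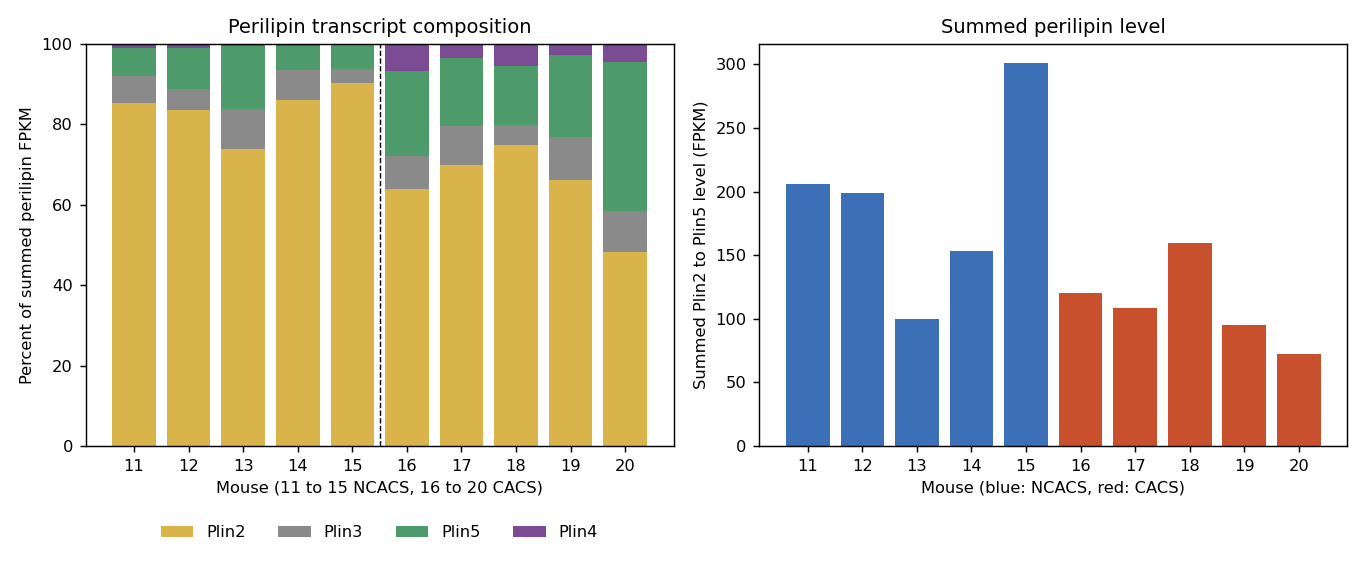
Left, the percent of summed perilipin FPKM given by Plin2, Plin3, Plin5 and Plin4 in each liver, with NCACS mice left of the dashed line; right, the summed FPKM of the 4 genes in the same livers. Plin2 takes 74.0% to 90.4% of the sum in NCACS and 48.3% to 75.0% in CACS livers, while the Plin4 segment is wider in every CACS liver and the Plin5 shares overlap (15.6% in mouse 13 and 14.6% in mouse 18).

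The Cide genes differed with opposite signs, Cidec by about as much as Plin5 and Cideb by less. Cidec, the droplet fusion gene of white fat that also appears in fatty liver, had 5.46, 4.36, 2.59, 2.77 and 2.78 CPM in mice 11 to 15. It had 5.62, 5.30, 6.46, 5.55 and 3.52 CPM in mice 16 to 20. CACS mice 17 and 20 were below NCACS mouse 11, and the other 3 CACS livers were above every NCACS liver. The means were 3.59 ± 1.27 and 5.29 ± 1.08 (SD, n = 5 each), giving a log2 fold change of 0.56 (SE 0.240) on 80 to 225 counts per liver. Cidec lies at 113424634 to 113435760 of chromosome 6.

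Cideb, the constitutive hepatocyte member that acts in loading lipid onto VLDL, was among the steadiest members. NCACS livers had 38.3 to 45.2 CPM and CACS livers 31.3 to 38.4 CPM, and 4 of the 5 CACS livers were below every NCACS liver. The log2 fold change was -0.20 (SE 0.0855), between means of 40.5 ± 2.70 and 35.2 ± 3.08 CPM (SD, n = 5 each). Its within-group SD of 0.111 (log2) was above that of 5.93% of genes. The gene, at 55754050 to 55758458 of chromosome 14, shares 1136 of its 1488 exon bases with Nop9 on the opposite strand. Nop9 itself had 19.5 ± 1.06 and 20.9 ± 2.85 CPM. The strand setting of the counting is not given in the sources used here, so reads from the shared bases cannot be assigned with certainty.

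Among the lipolysis genes, the lipase and its activator were close to level between the groups. Pnpla2 (chromosome 7, 141455198 to 141460743) had 93.9, 78.0, 72.2, 53.2 and 57.0 CPM in mice 11 to 15. It had 90.7, 67.3, 65.4, 79.9 and 97.5 CPM in mice 16 to 20. The ranges overlapped, at 53.2 to 93.9 CPM in NCACS and 65.4 to 97.5 CPM in CACS livers. The means were 70.9 ± 16.5 and 80.2 ± 14.1 (SD, n = 5 each), with a log2 fold change of 0.18 (SE 0.168). Abhd5 (chromosome 9, 122351608 to 122381524) ranged from 20.6 to 25.6 CPM in NCACS and from 20.6 to 24.2 CPM in CACS livers. Its log2 fold change of -0.05 (SE 0.0863) and its within-group SD of 0.107 (log2), above that of 5.13% of genes, made it the most even member. Abhd5 shares 950 of its 5956 exon bases with the antisense gene A730085K08Rik, which had 0 to 2 counts per liver.

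G0s2, the ATGL inhibitor gene, was uneven within both groups. Mice 11 to 15 had 30.1, 73.8, 24.8, 34.8 and 41.7 CPM. Mice 16 to 20 had 42.6, 23.0, 87.0, 33.7 and 16.8 CPM. NCACS mouse 12 and CACS mouse 18 stood far above their groups and both the highest and the lowest value belonged to CACS livers. The means of 41.1 ± 19.3 and 40.6 ± 27.8 (SD, n = 5 each) gave a log2 fold change of -0.02 (SE 0.419), whose sign turned on single mice, at -0.50 without mouse 18 and 0.31 without mouse 12. The within-group SD of 0.768 (log2) exceeded that of 93.8% of genes. The log2 ratio of G0s2 to Pnpla2 per kilobase was 0.93 ± 0.69 in NCACS and 0.59 ± 1.06 in CACS livers, from -0.74 in mouse 20 to 2.21 in mouse 18. The gene lies at 193272161 to 193273217 of chromosome 1.

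Mgll, whose enzyme splits monoacylglycerol and also degrades the endocannabinoid 2-arachidonoylglycerol, showed a similar picture. Mice 11 to 15 had 213, 252, 129, 165 and 223 CPM. Mice 16 to 20 had 199, 118, 383, 190 and 139 CPM. CACS mouse 18 was above all other livers and CACS mouse 17 was below them. The means were 196 ± 49.2 and 206 ± 105 (SD, n = 5 each), with a log2 fold change of 0.07 (SE 0.296) that was -0.28 without mouse 18. Mgll lies at 88724412 to 88828360 of chromosome 6 and shares 167 of its 5077 exon bases with the antisense gene Gm26588, which had 164 to 603 counts.

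**Figure D3:**
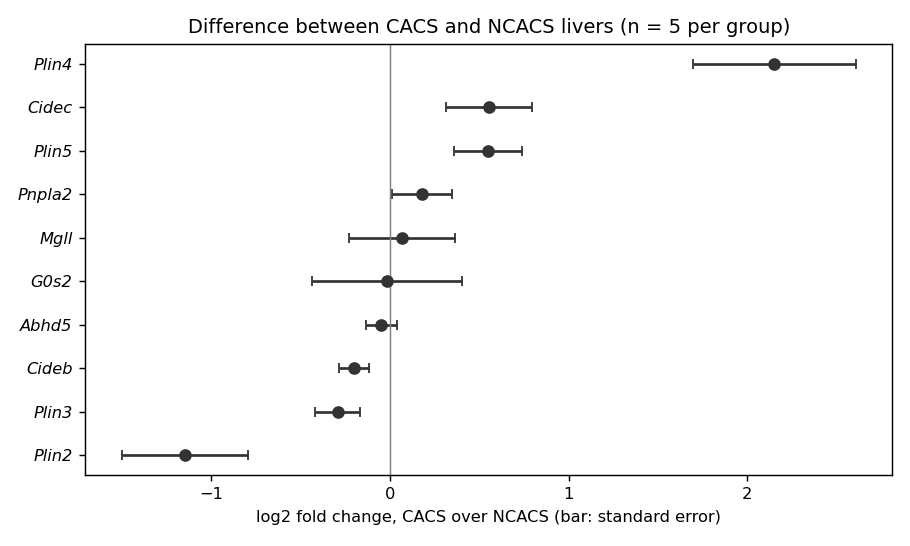
Log2 fold change of each gene, CACS over NCACS livers (n = 5 per group), from the edgeR fit, with bars for ± 1 standard error and the grey line at no difference. Plin4 (2.15) and Plin2 (-1.15) lie at the ends, and G0s2, Mgll and Abhd5 lie within 0.1 of the line.

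Per kilobase of exon, Plin2 was the highest of the 10 genes in all 10 livers, although its mean of 164 ± 72.3 FPKM in NCACS livers was 73.9 ± 30.6 FPKM in CACS livers. G0s2 (47.1 ± 22.2 and 46.6 ± 31.9 FPKM) and Mgll (38.7 ± 9.68 and 40.6 ± 20.6 FPKM) came next. Their means differed by less than 1 SD of either gene, and G0s2 was above Mgll in 4 of 5 livers of each group. Cideb (27.2 ± 1.81 and 23.7 ± 2.07 FPKM) and Pnpla2 (23.5 ± 5.45 and 26.5 ± 4.67 FPKM) followed. Their means stood in opposite order in the 2 groups, and each order held in only 3 of 5 livers. Plin5, at 15.5 ± 4.30 FPKM, lay below Pnpla2 in 5 of 5 NCACS livers, whereas in CACS livers, at 22.7 ± 3.61 FPKM, it was below Cideb in 3 of 5. Plin3 was next in both groups (11.2 ± 1.45 and 9.13 ± 1.48 FPKM). In NCACS livers Plin4 was the lowest, at 1.19 ± 0.694 FPKM, below Abhd5 (3.82 ± 0.311) and Cidec (1.93 ± 0.682), and below Cidec in 5 of 5 livers. In CACS livers Plin4, at 5.29 ± 2.95 FPKM, stood above Abhd5 (3.69 ± 0.253) in 3 of 5 livers, and above Cidec (2.85 ± 0.583) in 4 of 5, both differences within its spread.

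Some members varied together from liver to liver within the groups. After the group mean was subtracted from each gene's log2 CPM, correlations were taken over the 10 livers as a description without a p-value, since the livers share their library and scaling factor across genes. Of the 45 pairs of members 29 were positive, the median r was 0.12 and 6 exceeded 0.6. The share of such pairs over all genes was not computed, so these counts have no background to be read against. G0s2 and Mgll were the closest pair, with Pearson's r of 0.90 and Spearman's rho of 0.85, and r was 0.76 without mice 12 and 18. Both genes were highest in mouse 18 and, among NCACS livers, in mouse 12. In this pair and those below, the 2 livers left out were the farthest from the median for the first gene named only. Plin4 and Cidec came next (r = 0.78, rho = 0.70, and r = 0.64 without mice 18 and 11). Plin2 went with Mgll (r = 0.72, rho = 0.68) and with G0s2 (r = 0.70, rho = 0.62). Without mice 20 and 13 r was 0.61 with Mgll and 0.47 with G0s2. Plin4 went with Mgll (r = 0.65, rho = 0.52) and with G0s2 (r = 0.61, rho = 0.42), and r was 0.51 and 0.68 without mice 18 and 11. Plin2 and Plin4, which differed in opposite directions between the groups, had a positive r of 0.49 within them, and 0.20 without mice 20 and 13. The lowest r was -0.47, between Plin3 and Plin5.

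**Figure D4:**
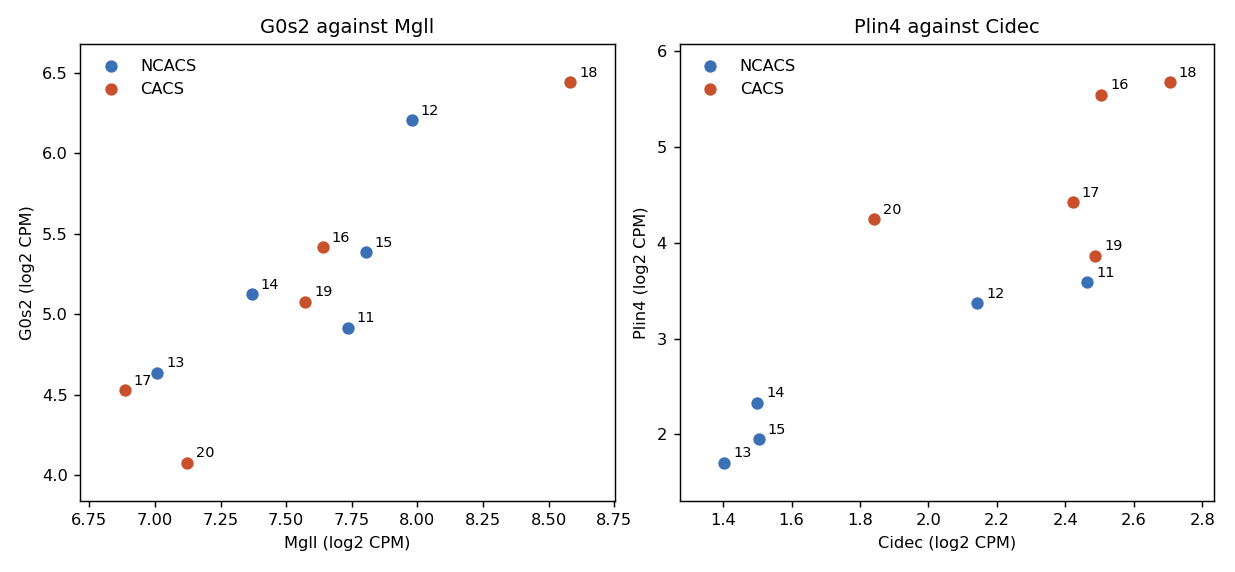
Log2 CPM of G0s2 against Mgll (left) and of Plin4 against Cidec (right), with each point a liver labelled by its mouse number, blue for NCACS and red for CACS. Both genes of the left pair are highest in mice 18 and 12 whatever their group, while in the right pair the CACS livers lie above the NCACS livers on the Plin4 axis and within NCACS livers mice 11 and 12 are highest for both genes.

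The gene most like each member was sought among 9235 genes with a mean of at least 5 CPM, by the same group-centred correlation over 10 livers. For G0s2 it was another member, Mgll (r = 0.90), whereas for Mgll it was Caln1 (r = 0.99). It was Hsd17b4 for Plin2 (r = 0.97), Sfxn2 for Plin3 (r = 0.94), Sec22c for Plin4 (r = 0.94) and 4933439C10Rik for Plin5 (r = 0.89). For Cideb it was Pet100 (r = 0.93), for Cidec Alas2 (r = 0.98), for Pnpla2 Pxn (r = 0.97) and for Abhd5 Nufip1 (r = 0.96). Each is the highest of many values on 10 livers.

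Weight change within each group was not used to choose the genes and was tested separately. The slope of log2 CPM on weight change was computed after both had been centred in their group, with a two-sided exact permutation over the 14400 pairings of weights and livers within groups. A negative slope means a higher level in mice that lost more. The slopes were -0.06 log2 units per percent of weight for Plin2 (exact permutation p = 0.474), 0.04 for Plin4 (exact permutation p = 0.641) and -0.06 for Plin5 (exact permutation p = 0.149). G0s2 had the steepest slope, -0.07 (exact permutation p = 0.304), and Mgll had -0.04 (exact permutation p = 0.334). Over the 10 genes the exact permutation p ran from 0.145 for Plin3 to 0.781 for Abhd5, so that no slope passed the threshold even before adjustment for 10 tests. The slope of Plin2 moved from -0.11 without mouse 13 to 0.01 without mouse 15, and that of Plin4 turned to -0.01 without mouse 11 or mouse 15. Those of Cidec, Pnpla2 and Abhd5 also changed sign in at least 1 alternative, whereas Plin3, Plin5, Cideb, G0s2 and Mgll kept theirs in all that were run. CACS mice spanned only 29% to 33% of weight lost, which limits what a slope within that group can show.

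The other genes of droplet biology were followed as 4 lists of textbook members, of which 70 of 72 genes were tested. These lists and the marker lists were chosen with earlier results of these data known. That limits what their counts and adjusted p-values can show. Beside the background of 3.80%, 2 of the 70 passed the threshold, both of them transcription factors that were higher in CACS livers, and 30 were higher and 40 lower by sign. Foxo1, the insulin-restrained activator of fasting genes, had 40.7, 39.5, 25.6, 39.1 and 36.9 CPM in NCACS livers. In CACS livers it had 58.3, 61.9, 52.5, 47.9 and 49.2 CPM. The groups did not overlap, and Foxo1 rose from 36.4 ± 6.18 to 54.0 ± 5.97 CPM (SD, n = 5 each), giving a log2 fold change of 0.57 (SE 0.131, adjusted p = 0.0375 by edgeR's quasi-likelihood test). Hnf4a, a master regulator of hepatocyte genes, had 632, 636, 637, 568 and 688 CPM in NCACS livers. It had 908, 826, 729, 1007 and 988 CPM in CACS livers. Every CACS liver was again above every NCACS liver, and Hnf4a rose from 632 ± 42.5 to 891 ± 116 CPM, a log2 fold change of 0.50 (SE 0.120, adjusted p = 0.0435 by the same edgeR test). Each of the 2 calls was lost in 9 of the 10 fits that left out 1 mouse, while the log2 fold changes stayed between 0.47 and 0.61 for Foxo1 and between 0.45 and 0.56 for Hnf4a.

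Of the 18 listed regulators tested, the 16 others did not pass in edgeR, among them the lipid-sensing receptors, and 3 of the 18 were at an unadjusted p under 0.05. DESeq2 called 3, Foxo1, Hnf4a and Prkaca. Prkaca, a catalytic subunit of protein kinase A named here after its values were seen, had 56.6 to 68.3 CPM in NCACS and 49.0 to 53.1 CPM in CACS livers without overlap (log2 fold change -0.29, adjusted p = 0.0647 by edgeR). Ppara had 99.1 ± 26.5 and 86.8 ± 22.7 CPM (log2 fold change -0.19, adjusted p = 0.660 by edgeR). Pparg had 6.72 ± 1.40 and 6.003 ± 2.41 CPM (log2 fold change -0.16, adjusted p = 0.783 by edgeR). None of the 18 listed target genes of PPARα passed in edgeR or DESeq2, with 6 higher and 12 lower, a median log2 fold change of -0.07 and 3 at an unadjusted p under 0.05. Of these 3, the means of Fgf21 (log2 fold change 2.09, 4 to 381 counts per liver) and Angptl4 (0.52) were higher in CACS livers. That of Fabp1 (-0.79) was lower. Fgf21 had 2.12, 0.734, 12.4, 1.44 and 0.115 CPM in CACS mice 16 to 20, and 0.453 to 1.34 CPM in NCACS livers. The Fgf21 groups overlapped (adjusted p = 0.202 by edgeR), with mouse 18 far above every other liver and mouse 20 below every other liver.

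Of the other lipases, 16 of 17 were tested and none passed in edgeR, with 6 higher and 10 lower. The median log2 fold change was -0.15 and 5 were at an unadjusted p under 0.05. DESeq2 called 3, Lipa, Ddhd2 and Daglb. Ddhd2, named here after its values were seen, had 13.5 to 27.0 CPM in NCACS and 28.2 to 44.8 CPM in CACS livers without overlap. Its log2 fold change was 0.67 (adjusted p = 0.0597 by edgeR) and that of Daglb was -0.35 (adjusted p = 0.0931 by edgeR). Lipe, hormone-sensitive lipase, which acts between ATGL and monoacylglycerol lipase, had 17.1 ± 3.97 and 13.6 ± 3.05 CPM (log2 fold change -0.34, adjusted p = 0.332 by edgeR). Lipa, the lysosomal acid lipase of lipophagy, had 267 ± 18.9 and 194 ± 49.7 CPM (log2 fold change -0.46, adjusted p = 0.117 by edgeR), and 4 of 5 CACS livers were below every NCACS liver, with mouse 18 the exception at 275 CPM. With all 10 livers Lipa passed the threshold in DESeq2 (log2 fold change -0.47, adjusted p = 0.0472 by DESeq2). Without mouse 18 it also passed in edgeR, at a log2 fold change of -0.62.

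Of the other droplet proteins, 18 of 19 were tested and none passed in edgeR (1 in DESeq2), with 8 higher and 10 lower, a median log2 fold change of -0.02 and 2 at an unadjusted p under 0.05. Hilpda, a small droplet protein that inhibits ATGL as G0S2 does, had 2.32 ± 0.575 and 3.16 ± 0.651 CPM (log2 fold change 0.44, adjusted p = 0.246 by edgeR). Plin1, the perilipin of adipocytes, was near its detection limit at 0 to 22 counts per liver, or 0.242 ± 0.258 and 0.482 ± 0.216 CPM (log2 fold change 0.99, adjusted p = 0.462 by edgeR).

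Plin1, Plin4 and Cidec are abundant in white fat, so adipocyte markers were set beside them. Of the 8 markers 4 passed the filter on low counts. Of these 4, 2 were at an unadjusted p under 0.05 in edgeR, Adrb3 (lower in CACS livers) and Cfd (higher), and DESeq2 called Adrb3. The list summed to 11.6 to 19.2 CPM in NCACS and 7.17 to 15.7 CPM in CACS livers. Much of this sum was Adrb3, which fell in CACS livers (log2 fold change -0.69, adjusted p = 0.0254 by edgeR). Without it the sums were 0.249 to 7.30 CPM in NCACS and 1.599 to 8.45 CPM in CACS livers, and the defining markers were sparse, with Cidea at 0 to 4 and Lep at 0 to 21 counts. Retn had 2 to 20 counts in NCACS and 8 to 27 in CACS livers, and Acvr1c had 1 to 7 and 0 to 4. Adipoq had 96, 1, 12, 22 and 11 counts in mice 11 to 15. It had 17, 49, 58, 49 and 43 counts in mice 16 to 20. Thus 4 of the 5 CACS livers, of mice 17 to 20, had more Adipoq counts than every NCACS liver but that of mouse 11, which was also the highest NCACS liver for Plin4, while CACS mouse 16 was among the lower livers for Adipoq and had 46.7 CPM of Plin4. Cfd, another adipocyte product, had 6 to 79 counts in NCACS and 33 to 152 in CACS livers, with a CACS mean 3.002 times the NCACS mean in CPM (adjusted p = 0.155 by edgeR). The part of these markers in the Plin4 and Cidec differences was not tested. Skeletal muscle, Kupffer cell, stellate, endothelial and cholangiocyte markers were also summed. Muscle markers summed to 155 CPM in mouse 11 and 30.6 to 40.9 CPM in the other NCACS livers. In CACS livers they summed to 55.0 CPM in mouse 16 and 11.8 to 22.3 CPM in the others. All 8 had a negative log2 fold change, from -1.47 to -1.03. None passed the threshold in edgeR or DESeq2, and 7 were at an unadjusted p under 0.05. Kupffer markers summed to 175 to 304 CPM in NCACS and 110 to 220 in CACS livers, and all 8 had a negative log2 fold change. Of these, Cd5l passed in edgeR (log2 fold change -0.90, adjusted p = 0.0374), 5 of 8 were at an unadjusted p under 0.05, and DESeq2 called 3, Cd5l, Marco and Adgre1. The part of these markers in the members' differences was not tested. Stellate markers summed to 191 to 287 and 238 to 346 CPM, endothelial markers to 130 to 184 and 162 to 212, and cholangiocyte markers to 33.6 to 52.8 and 20.3 to 49.7, with none past the threshold in edgeR or DESeq2 and 1 of their 19 tested genes at an unadjusted p under 0.05.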

How the data were processed

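RNA from the liver of each of 10 mice was extracted with TRIzol and RNeasy, made into stranded poly(A) libraries and sequenced as single reads. The authors aligned reads to GRCm38 with STAR 2.4.1d in 2-pass mode and counted them per gene with HTSeq 0.6.1, versions that the submitters' processing notes also list, and deposited raw counts with no normalization. The annotation release and the strand setting are not given in the sources used here. The study's methods name DESeq2 and a batch correction, and since the labels here give no batch, none was corrected.

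Each mouse's group, number and weight change came from its label. The full genotype of the model is not reported here. All columns of the table were used (0 were not). Symbols and positions came from GENCODE M21, which lacked 1081 of 43629 identifiers, 70 of them among the 14143 tested. After filterByExpr and TMM scaling, all 10 livers entered 1 fit with edgeR 4.0.16 (limma 3.58.1, R 4.3.3) and its quasi-likelihood test, without covariates, and genes were called at a Benjamini-Hochberg adjusted p under 0.05. A prior count of 2 entered log2 CPM. FPKM was the TMM-normalized CPM per kilobase of the union of exons. Total counts ran from 31459179 to 40746178 per liver. No 2 livers of a group were 1 library deposited again, as chi-square per degree of freedom was at least 50.1 (mice 11 and 12). The labels do not say whether libraries were prepared together, and p-values measure the spread between these mice. Scripts were tested on simulated data. Promoter windows on chromosome 18 were left out of the motif shares.

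The 10 members and all lists were chosen with earlier results of these data known, so members get no p-value in the CACS against NCACS comparison. The genes named are the members, genes of the 4 pathway lists past the threshold, Lipe, Plin1, Lipa, Hilpda, Ppara and Pparg, and the gene most like each member. Marker genes, genes overlapping a member, and Prkaca, Ddhd2, Daglb, Fgf21, Angptl4 and Fabp1 of the pathway lists were also named, after their values were seen. Alternatives were DESeq2 1.42.0, limma-voom, a robust fit, scaling by RLE, by upper quartiles or by raw totals, dropping the filter or asking for 10 counts in every liver, and leaving out each mouse, and for weight slopes a prior count of 0.5.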

Additional observations from a re-analysis of the deposited data

Results flagged for a closer look

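A search for far values covered 36 combinations of a group of 5 livers and a gene. The genes were the members, Plin1, Hilpda, Lipe, Lipa, Ppara, Pparg, Foxo1 and Hnf4a, and the other genes named in the report were not checked. The gap between the most extreme liver and its nearest neighbour was divided by the group's range, with 0.710 as the critical value for 5 samples. Chance passes about 1 in 20 such groups, and 4 of the 36 passed. NCACS mouse 13 gave 3 of them. It was high for Cideb, at 45.2 CPM (gap over range 0.765 on log2 CPM), and low for Pparg, at 4.27 CPM (0.829), and for Foxo1, at 25.6 CPM (0.792). CACS mouse 16 was low for Plin1, at 0.100 CPM (0.896), which stands for 4 counts. No liver was far from its group for Plin2, Plin4, Plin5, G0s2 or Mgll by this measure.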

How the results depend on the processing

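No paired analysis was possible because mouse numbers run from 11 to 15 in 1 group and from 16 to 20 in the other. The 538 genes past the threshold became 1386 with DESeq2, 392 to 544 with the remaining settings, and 178 (without mouse 11) to 519 with 1 mouse left out. The count of members past it, 1, was 2 with DESeq2, which added Plin2, and 0 to 1 with 1 mouse left out (0 without mouse 13, 14, 15, 16 or 18). The count of pathway genes, 2, was 1 with raw library totals (Foxo1 lost), 1 without a filter (Hnf4a lost), 7 with DESeq2 and 0 to 3 with 1 mouse left out. The adjusted p of Foxo1 ran from 0.0029 to 0.0784 and that of Hnf4a from 0.000785 to 0.0974 over all 18 alternatives. The cause of these changes was not tested.

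The sign of G0s2, -0.02 on the log2 scale, turned with 1 mouse left out, with a range of -0.50 to 0.31, and was 0.31 without mouse 12, 0.14 without 17, 0.04 without 19 and 0.18 without 20. That of Mgll, 0.07, was -0.0052 with limma-voom, -0.05 without mouse 13 and -0.28 without 18, in a leave-one-out range to 0.22. That of Pparg, -0.16, was 0.014 without mouse 20, in a leave-one-out range from -0.32. The other 8 members kept their sign in all 18 alternatives, and Abhd5 reached -0.00024 without mouse 15. The number of weight slopes past the threshold after adjustment was 0 in every setting. Before adjustment, the exact permutation p was 0.00764 for Plin2 and 0.0292 for Mgll without mouse 13, and 0.0365 for Plin3 without mouse 20. At 80 to 225 counts for Cidec and 99 to 1868 for Plin4, counting error is small beside the spread between mice.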
